A study of Mus musculus with 6 samples.

Results

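The genes described here encode mitochondrial ribosomal proteins. They were chosen by symbol, as the genes named Mrpl or Mrps followed by a number, with rows named as pseudogenes left out, and came to 78 of the 16854 genes in the table. By their place in the known structure of the mitochondrial ribosome, 51 belong to the large subunit and 26 to the small subunit. Mrps30 and Mrps18a, named for the small subunit, were counted in the large one, where their proteins sit. Mrps36, whose protein is a subunit of the oxoglutarate dehydrogenase complex, was counted in neither.

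RNA was measured in C2C12, a mouse myoblast line whose cells fuse into myotubes when serum is reduced. Cells of both groups were grown to confluence and kept for 3 days in 2% horse serum. The control group is 3 libraries of cells given a scrambled hairpin sequence, and the knockdown group is 3 libraries of cells that stably express a short hairpin RNA against Adamtsl2, which encodes a secreted, ADAMTS-like glycoprotein of the extracellular matrix. Whether the knockdown is 1 clone or a pool, whether more than 1 hairpin was used, and whether the 3 libraries of a group came from separate cultures is not stated in the labels, so the p-values measure only the spread between these libraries.

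Recovered reads came to 37346439 to 50329438 per library, and 1 read was worth 0.829 to 1.26 normalised counts. Adamtsl2 had 1325, 1266 and 1307 normalised counts in the controls and 23.2, 21.7 and 7.83 in the knockdown, so all 3 knockdown libraries were lower. Its log2 change was -6.26 ± 0.41 (SE), adjusted p = 1.1e-04 by limma with Benjamini-Hochberg adjustment. Summed over 6 skeletal muscle markers, values were 918884 to 946241 in the controls and 7193 to 8346 in the knockdown. Their part in the results below was not tested, and in RNA from whole cultures fewer cells of a type and less RNA per cell cannot be told apart. Of the defining markers of other cell types, Cdh5, Kdr and Tie1 (endothelial), Ptprc (haematopoietic), Epcam and Krt18 (epithelial), Sox10 and Snap25 (neural and glial) and all 4 adipocyte markers had no values in the table, so the endothelial, haematopoietic, epithelial and neural lists had 1, 3, 2 and 2 markers with values. Their sums were 1.90 to 4.36 in control and 2.51 to 68.2 in knockdown libraries for the endothelial list, 70.8 to 99.8 and 97.8 to 120 for the haematopoietic, 40.3 to 48.0 and 25.1 to 35.6 for the epithelial, and 64.3 to 83.6 and 78.8 to 520 for the neural and glial list.

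Knockdown library 3 stood apart from knockdown libraries 1 and 2. Its log2 values correlated with theirs at Pearson r = 0.917 and 0.920 across genes, against 0.993 to 0.996 for the other pairs within a group. The noncoding nuclear RNA Malat1 made up 2.83% of that library and 0.302 to 0.515% of the others, while protein-coding genes made up 93.6% and at least 97.7%. Counts are therefore given with and without it.

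Mitochondria carry their own ribosome, which makes the few inner membrane proteins of oxidative phosphorylation that mitochondrial DNA encodes. Its RNA comes from mitochondrial DNA, but all its proteins are encoded in the nucleus, translated in the cytosol and imported. Some descend from proteins of the bacterial ribosome and others exist only in mitochondria. Skeletal muscle relies on this ribosome for its respiratory capacity, and mitochondrial content rises when myoblasts turn into myotubes.

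Most mitochondrial ribosomal protein genes had less RNA in knockdown than in control cells in libraries 1 and 2, and fewer did so in library 3. With all 6 libraries, 28 of 78 members were lower in the knockdown, 1 was higher and 49 did not pass an adjusted p of 0.05 (limma), while over all 16245 genes tested 23.5% were lower and 21.7% higher. The member count is thus above the background share downwards and below it upwards. The median log2 change was -0.46 over members and -0.00 over all genes tested, and 65 of 78 members had a negative value. Without knockdown library 3, 70 members were lower and 2 higher, against 39.9% and 38.6% of all genes, with a median of -0.70 against -0.01, and all 29 earlier calls were kept. The lower count was 17 without control library 1 and 18 without control library 3, against 2658 and 2648 of all 16245 genes. All 78 members passed the filter on low values, with 29 to 10700 reads per member and library (median 1472.5).

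Counted by library, without a test, 72 members in knockdown library 1 and 72 in library 2 were below all 3 controls, against 45.4% and 45.6% of all genes. In knockdown library 3, 34 were below all controls and 39 above them, against 48.0% and 45.9% of all genes. The median over members, relative to the control mean on the log2 scale, was -0.72, -0.71 and 0.08 in knockdown libraries 1 to 3. The summed normalised counts of the 78 members were 148153, 147255 and 159764 in the controls and 89320, 92607 and 187167 in the knockdown. In share of reads that was 0.312, 0.312 and 0.334% in the controls and 0.218, 0.228 and 0.419% in the knockdown. Libraries 1 and 2 thus held the lowest sums of the 6 and library 3 the highest. The 3 knockdown values lay wholly below the 3 control values for 34 members and wholly above them for 2, against 32.7% and 30.0% of all genes.

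**Figure D1:**
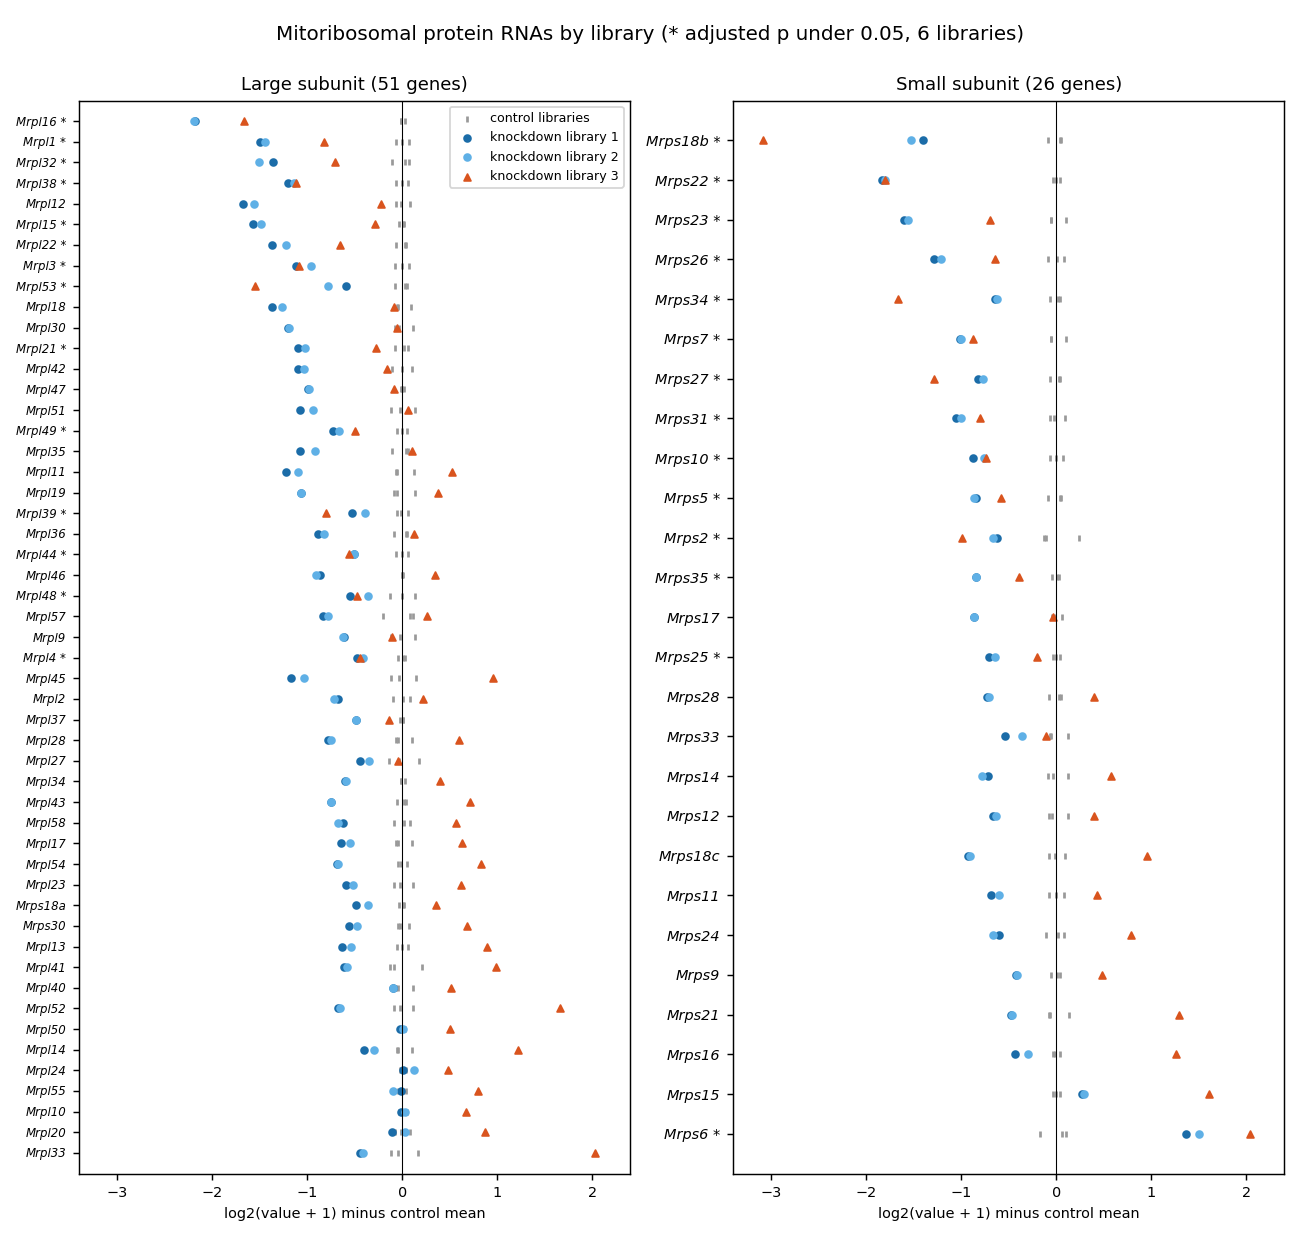
Each row is 1 member and the x axis is log2(normalised count + 1) minus the mean of the 3 controls, with grey ticks for control libraries, blue circles for knockdown libraries 1 and 2 and orange triangles for library 3; asterisks mark an adjusted p under 0.05. The circles lie left of the controls for most members, and the triangles lie right of them for many of the members in the lower rows of both panels.

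The 2 subunits differed in how many members passed, although whether they differ from each other was not tested. Of 51 large subunit members, 14 were lower (27.5%, near the 23.5% of all genes) and 0 higher, with a median log2 change of -0.45. At an unadjusted p under 0.05 in limma 21 were lower and 0 higher, against 4431 and 4143 of all 16245 genes. For the large subunit edgeR called 11 and 0 (22.0% and 23.2% of all genes), and DESeq2 called 14 and 0 (25.3% and 26.7%). Of 26 small subunit members, 13 were lower and 1 was higher, with a median of -0.55. Without knockdown library 3 the subunits were alike in share, with medians of -0.68 and -0.73. Then 45 of 51 large (88.2%) and 24 of 26 small subunit members (92.3%) were lower, against 39.9% of all genes. The count of lower large subunit members was 7 without control library 1 and 8 without control library 2 or control library 3. Over all 16245 genes, 2658, 2778 and 2648 were lower without control libraries 1, 2 and 3, so the large subunit share was then no higher than that of all genes.

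Split by origin, 12 of 46 members with a bacterial counterpart (26.1%) and 15 of 31 mitochondrion-specific members (48.4%) were lower, against 23.5% of all genes, with medians of -0.37 and -0.52. The mitochondrion-specific class includes Mrps18a and Mrps18b, whose genes descend from a bacterial one. The split was widest within the small subunit, where 9 of 10 mitochondrion-specific members were lower against 4 of 16 with a bacterial counterpart (medians -0.97 and -0.30). In the large subunit the counts were 6 of 21 (28.6%) and 8 of 30 (26.7%), near the background share. All 10 mitochondrion-specific small subunit members had their 3 knockdown values below their 3 control values, and their median against the control mean was -0.95, -0.92 and -0.75 in knockdown libraries 1 to 3. The other 3 classes had positive medians in library 3: 0.45 for the small subunit members with a bacterial counterpart, 0.12 for those of the large subunit, and 0.34 for the mitochondrion-specific large subunit members. Without library 3 the median of the 10 was -0.93, beside -0.64 for the 16 with a bacterial counterpart. All 10 were then lower, as were 14 of the 16, against 39.9% of all genes. Members also differ in coding length, and its part in this split was not tested.

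**Figure D2:**
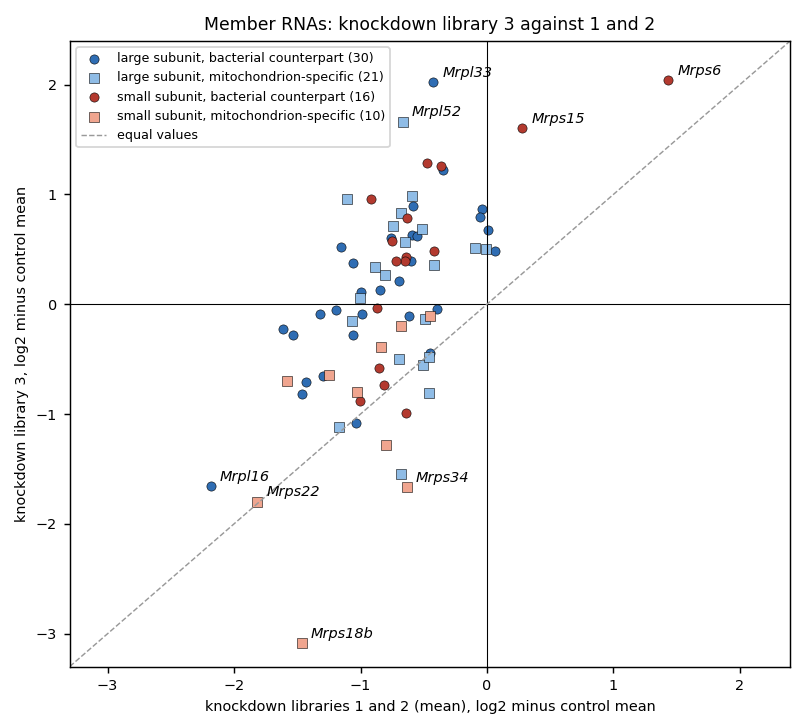
Each point is 1 member: the x axis is the mean of knockdown libraries 1 and 2 and the y axis is knockdown library 3, both as log2 minus the control mean, with colour for the subunit, squares for mitochondrion-specific members and a dashed line of equal values. All 10 squares of the small subunit lie below 0 on both axes, and most points of every class lie above the dashed line.

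The start regions of these genes are known to hold sites for the nuclear respiratory factor NRF1, the ETS-family factor GABP and YY1, which couple nuclear genes to mitochondrial function. RefSeq promoters of 300 bases (250 before to 50 after the start, GRCm38.p6) were found for 69 members, and both strands were searched. The GABP-type ETS motif ACTTCCGG was in 12 of them (17.4%) against 4.31% of the promoters of 27025 genes. The NRF1 palindrome, marked in the Mrpl9 promoter printed next, was in 3 (4.35% against 1.07%). A looser form, with any letters at its 2 central positions and so including the strict one, was in 14 of 69 (20.3%), against 1891 of 27025 promoters. AAGATGGCG, for YY1, was in 8 (11.6% against 1.64%) and the CCAAT box was in 27 (39.1% against 41.1%). Of the 12 members with the ETS motif 5 were lower in the knockdown, and of the 14 with the looser NRF1 form 4. Of the 8 with the YY1 motif 1 was lower, and of the 27 with a CCAAT box 9. Over all 78 members 35.9% were lower, and over all genes tested 23.5%. Whether these counts differ by motif was not tested. A match describes the letters and is not evidence of binding.

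Promoter stretches of 4 members are shown with the matched motif in capitals, as examples of the letters searched: Mrps22 and Mrps27 hold the ETS motif, and Mrpl12 and Mrpl9 hold an NRF1 form. Whether motif and response are linked was not tested. Mrpl33, Mrpl52 and Mrps18c also hold the ETS motif. Their values in library 3 were above all controls, and their log2 changes without it were -0.42, -0.66 and -0.92. Mrpl32, Mrpl44 and Mrps26, which fell with groups apart, also hold an NRF1 form, and Mrps26 holds the ETS motif as well. So do Mrpl14 and Mrps21 for the NRF1 form, with log2 changes of 0.17 and 0.11 and no call. Without library 3 these 2 changes were -0.35 and -0.47. The stretches are chr9:98601680-98601829 on the minus strand for Mrps22, chr13:99344706-99344785 on the plus strand for Mrps27, chr11:120484463-120484612 on the plus strand for Mrpl12 and chr3:94443168-94443317 on the plus strand for Mrpl9. Relative to the RefSeq start site the motifs begin at -11, -49, -81 and -28. In Mrps22 it is read on the opposite strand.
Mrps22: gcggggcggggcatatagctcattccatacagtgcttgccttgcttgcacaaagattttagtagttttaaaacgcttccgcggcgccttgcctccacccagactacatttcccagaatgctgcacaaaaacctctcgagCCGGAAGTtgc
Mrps27: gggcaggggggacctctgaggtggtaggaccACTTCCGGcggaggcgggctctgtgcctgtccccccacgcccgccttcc
Mrpl12: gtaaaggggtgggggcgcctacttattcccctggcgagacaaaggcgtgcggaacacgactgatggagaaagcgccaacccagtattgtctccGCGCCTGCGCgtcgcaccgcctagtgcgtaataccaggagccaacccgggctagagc
Mrpl9: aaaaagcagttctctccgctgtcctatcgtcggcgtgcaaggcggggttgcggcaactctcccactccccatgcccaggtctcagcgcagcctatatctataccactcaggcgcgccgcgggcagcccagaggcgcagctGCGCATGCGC

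Among large subunit members, Mrpl16 fell most. Mrpl16 (ENSMUSG00000024683, chromosome 19, 11770391 to 11774960, plus strand) encodes the counterpart of bacterial L16, which lines the binding sites of transfer RNA. It had 1768, 1775 and 1822 normalised counts in the controls and 393, 391 and 566 in the knockdown, so every knockdown library was below every control. The means were 1788 ± 29.5 and 450 ± 100 (SD, n = 3), a log2 change of -2.01 ± 0.18 (SE), adjusted p = 3.1e-04 (limma). Mrpl38 (ENSMUSG00000020775, chromosome 11, 116131817 to 116138868, minus strand), a mitochondrion-specific protein of the central protuberance, had knockdown libraries close to each other. Its controls were 3596, 3439 and 3762 and its knockdown values 1569, 1634 and 1652, a log2 change of -1.15 ± 0.10 (adjusted p = 3.2e-04, limma), and -1.17 without library 3.

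Mrpl1, Mrpl32 and Mrpl22 also fell, with library 3 between the controls and the other knockdown libraries in each. Mrpl1, a protein of the stalk near the exit site of transfer RNA, had 1165, 1110 and 1220 normalised counts in the controls and 414, 429 and 658 in the knockdown (log2 -1.25 ± 0.21, adjusted p = 0.0039, limma). Mrpl32, a protein processed by the mitochondrial m-AAA protease before it joins the ribosome, went from 1359, 1239 and 1399 to 517, 468 and 816 (-1.19 ± 0.23, adjusted p = 0.0072, limma). Mrpl22, near the tunnel through which the new chain leaves, went from 1546, 1445 and 1561 to 587, 648 and 964 (-1.08 ± 0.21, adjusted p = 0.0069, limma). In none of these 3 genes did the groups overlap.

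Mrpl15 passed less firmly. Its values were 3054, 3150 and 3142 in the controls and 1045, 1110 and 2560 in the knockdown, a log2 change of -1.12 ± 0.35 (adjusted p = 0.044, limma). Leaving out any 1 library other than knockdown 3 gave adjusted p = 0.11 to 0.12, edgeR gave 0.086, upper-quartile scaling 0.090 and limma without trend 0.056, and without knockdown library 3 the change was -1.53 (adjusted p = 1.8e-09, limma). Of the 14 large subunit calls, 7 held with each library left out in turn: Mrpl1, Mrpl3, Mrpl16, Mrpl22, Mrpl32, Mrpl38 and Mrpl49.

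Per kilobase of all annotated exons combined, Mrpl12 and Mrpl52 were the large subunit members with most RNA in control cells, at 4229 and 3412 normalised counts. The median member was at 645. For some members this length is far above that of the principal transcript (3682 against 666 bases in Mrpl42), so the ranking depends on the length used. Mrpl12 encodes the counterpart of the bacterial L7/L12 stalk protein, which recruits translation factors, and its protein also binds the mitochondrial RNA polymerase. Its values were 6188, 6395 and 6854 in the controls and 2032, 2203 and 5527 in the knockdown, so the groups did not overlap, yet it did not pass (log2 -1.15 ± 0.39, adjusted p = 0.055, limma). Without knockdown library 3 it passed (-1.61, adjusted p = 3.0e-09, limma). Mrpl52, a mitochondrion-specific protein, went from 3546, 3705 and 4101 to 2368, 2400 and 11962. Its libraries 1 and 2 were below the controls and library 3 was above them all. Its log2 change was 0.11 ± 0.64 (adjusted p = 0.90, limma) with 6 libraries and -0.66 (adjusted p = 4.6e-06, limma) without library 3.

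The large subunit members with the smallest log2 changes were Mrpl41, Mrpl13 and Mrpl40, at -0.07, -0.09 and 0.11. In Mrpl41, controls of 1471, 1434 and 1810 stood beside 1022, 1045 and 3098 in the knockdown. In Mrpl13, 3382, 3250 and 3534 stood beside 2190, 2329 and 6285. For both, knockdown libraries 1 and 2 lay below the controls and library 3 above, so the small change is a mean of unlike values, and without library 3 both were lower (-0.60 and -0.58). The signs of Mrpl41 and Mrpl13 turned positive with upper-quartile scaling, edgeR and DESeq2. Mrpl40 differed from these, with 851, 866 and 962 in the controls and 835, 833 and 1272 in the knockdown, and did not pass without library 3 either (-0.10, adjusted p = 0.24, limma). The 5 other large subunit members that were not lower without library 3 were Mrpl10, Mrpl20, Mrpl24, Mrpl50 and Mrpl55, with log2 changes then between -0.06 and 0.06.

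In the small subunit, Mrps22 was the clearest fall. Mrps22 (ENSMUSG00000032459, chromosome 9, 98588730 to 98601660, minus strand) encodes a mitochondrion-specific protein whose human gene is mutated in a mitochondrial disease. Its values were 1390, 1368 and 1430 in the controls and 391, 401 and 400 in the knockdown. Library 3 did not stand apart here. The means were 1396 ± 31.4 and 397 ± 5.27 (SD, n = 3), a 3.51-fold lower level (log2 -1.81 ± 0.11, adjusted p = 7.2e-05, limma), and the change stayed between -1.82 and -1.79 with each library left out. By an exact permutation test (two-sided) over its libraries p was 0.1, which is as low as 3 against 3 can go and holds for every member whose groups do not overlap.

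Mrps18b (ENSMUSG00000024436, chromosome 17, 35910379 to 35916389, minus strand) had the largest fall of the small subunit by mean but an uneven one. It went from 1519, 1396 and 1537 to 560, 514 and 173, with library 3 lowest. The log2 change was -2.01 ± 0.46 (adjusted p = 0.014, limma) and -1.46 without library 3, and adjusted p was 0.053 and 0.055 when control library 1 or 3 was left out. Mrps23, a mitochondrion-specific protein and at 2456 normalised counts per kilobase one of the small subunit members with most RNA, went from 3683, 3689 and 4121 to 1260, 1297 and 2362 (-1.29 ± 0.26, adjusted p = 0.0091, limma). Its groups did not overlap.

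Mrps26, Mrps34 and Mrps7 completed the 6 largest falls of the small subunit. Mrps26, mitochondrion-specific, went from 2276, 2554 and 2429 to 992, 1044 and 1543 (log2 -1.05 ± 0.19, adjusted p = 0.0062, limma). Mrps34, needed for the stability of the small subunit, went from 1791, 1897 and 1923 to 1195, 1211 and 588 (-0.98 ± 0.30, adjusted p = 0.038, limma). Mrps7, the counterpart of the bacterial S7 that starts assembly of the head, went from 2938, 2944 and 3282 to 1513, 1524 and 1660 (-0.96 ± 0.11, adjusted p = 9.1e-04, limma). The groups were apart in all 3, library 3 was the lowest for Mrps34, and the call of Mrps34 was lost when 1 control library was left out (adjusted p = 0.10 to 0.12, limma) and without the mean-variance trend (0.0502). Exons of Mrps34 share 763 bases with Nme3 on the same strand and 1309 with Mapk8ip3 on the other, so its reads are less certain.

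Mrps27, which binds the RNA of the small subunit and whose promoter is printed above, fell from 1261, 1185 and 1272 to 697, 726 and 508 (log2 -0.96 ± 0.17, adjusted p = 0.0051, limma). Mrps31 (-0.95), Mrps10 (-0.79), Mrps5 (-0.76), Mrps2 (-0.76), Mrps35 (-0.69) and Mrps25 (-0.52) were the other small subunit members that fell, each with groups apart. Mrps33 was the mitochondrion-specific member that did not pass, at 836, 830 and 949 in the controls and 599, 678 and 809 in the knockdown. Its log2 change was -0.33 ± 0.15 (adjusted p = 0.13, limma), and its groups did not overlap.

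Mrps6 was the only member called higher with 6 libraries. Mrps6 (ENSMUSG00000039680, chromosome 16, 92058270 to 92112227, plus strand) encodes the counterpart of the bacterial platform protein S6. It had 1166, 965 and 1134 normalised counts in the controls and 2794, 3074 and 4470 in the knockdown. Every knockdown value was above every control, with a log2 change of 1.64 ± 0.21 (adjusted p = 0.0013, limma) and 1.43 without library 3. Exons of Mrps6 share 464 bases on the same strand with other genes, summed over Gm49711 and Slc5a3. Slc5a3, a myo-inositol transporter gene, rose from 792 ± 46.7 to 7259 ± 695 (log2 3.19 ± 0.12, adjusted p = 1.9e-05, limma). How much of the rise of Mrps6 comes from reads of Slc5a3 was not tested. Mrps15, another counterpart of a bacterial protein, was the other member with all knockdown values above the controls (1706, 1665 and 1751 against 2059, 2085 and 5189). It did not pass with 6 libraries (0.72 ± 0.37, adjusted p = 0.17, limma) and passed without library 3 (0.28, adjusted p = 5.7e-04, limma).

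**Figure D3:**
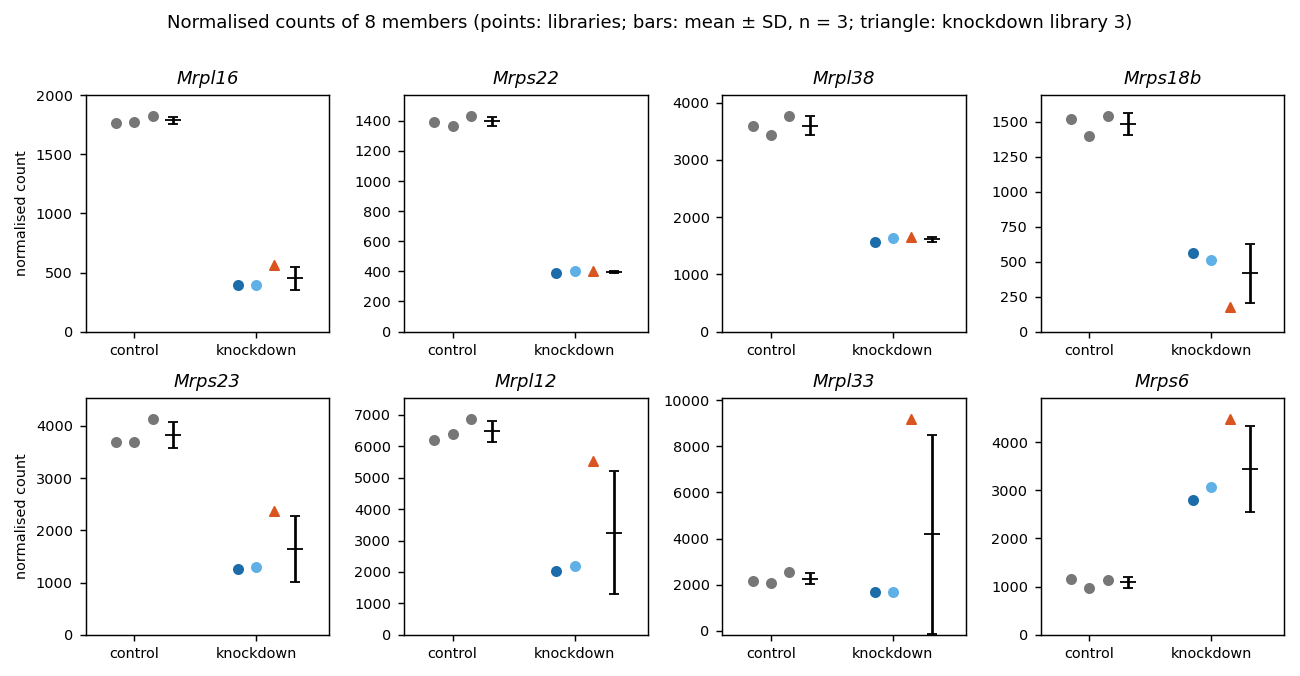
Each panel plots the normalised counts of 1 member in the 3 control (grey) and 3 knockdown libraries (blue circles for 1 and 2, orange triangle for 3), with the mean and SD beside them; each y axis has its own scale. In Mrps22 and Mrpl38 the triangle lies with the circles, in Mrpl12 and Mrpl33 it lies far above them, in Mrps18b below them, and in Mrps6 all 3 lie above the controls.

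Small subunit members with little or no net change were Mrps21, Mrps9 and Mrps24, at 0.11, -0.12 and -0.16, all counterparts of bacterial proteins. Mrps21, at 3558 normalised counts per kilobase the small subunit member with most RNA, went from 2508, 2497 and 2884 to 1881, 1899 and 6401. Mrps9 went from 1366, 1459 and 1422 to 1053, 1060 and 1975, and Mrps24 from 2184, 2010 and 2291 to 1423, 1361 and 3713. In each, libraries 1 and 2 were below all controls and library 3 above all. Without library 3 all 3 were lower (-0.47, -0.42 and -0.63), and the sign of Mrps24 turned positive with edgeR and DESeq2.

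The Mrps18 family has 3 genes that descend from 1 bacterial S18 gene, and their proteins occupy different places in the ribosome. In the split by origin, Mrps18c was counted as having a bacterial counterpart. Mrps18a and Mrps18b were counted as mitochondrion-specific despite that descent. Mrps18b, in the small subunit, fell as given above. Mrps18c, the member that sits where bacterial S18 does, went from 946, 986 and 1065 to 522, 532 and 1934 (log2 -0.29 ± 0.52, adjusted p = 0.68, limma), and its sign turned positive with edgeR and DESeq2. Mrps18a, in the large subunit, went from 1929, 1984 and 2007 to 1410, 1537 and 2522 (-0.16 ± 0.23, adjusted p = 0.61, limma). In libraries 1 and 2 all 3 genes were below the controls, and in library 3 Mrps18b was lowest while Mrps18a and Mrps18c were above all controls. Without library 3 their log2 changes were -1.46, -0.92 and -0.42 for Mrps18b, Mrps18c and Mrps18a, and all passed. Mrps36, counted in neither subunit, fell from 1231, 1108 and 1218 to 594, 597 and 837 (-0.83 ± 0.17, adjusted p = 0.0099, limma), with groups apart.

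The position of library 3 varied with the length of the encoded protein. The principal transcripts of members encode 65 to 442 residues, with a median of 194, against 461 for 13194 protein-coding genes tested, members included. Library 3 minus the mean of libraries 1 and 2 had a median of 0.89 on the log2 scale over members and was above 0 for 68 of 78. Over the protein-coding genes the median was -0.14 and 43.8% were above 0. As a description across genes, which share the same libraries, Spearman's rho between this difference and coding length was -0.40 over the 78 members and -0.36 over the protein-coding genes, and -0.34 and -0.58 over the 51 large and 26 small subunit members.

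Of the 24 members of at most 150 residues, 23 were higher in library 3 than in libraries 1 and 2, with a median difference of 1.05 against 0.88 for the 942 protein-coding genes of that length, and 2 were called lower, against 19.6% of those genes. Of the 27 members of 150 to 250 residues 25 were higher in library 3 (median 0.78 against 0.35), and 11 were called lower, against 458 of 1761 protein-coding genes of that length. Of the 23 members of 250 to 400 residues 17 were higher (0.53 against 0.01), and 13 were called lower, against 28.6%. In libraries 1 and 2 the medians against control were -0.62, -0.72 and -0.89 in these 3 classes, whereas in library 3 they were 0.60, -0.06 and -0.39. Mrpl33, the shortest member, went from 2180, 2074 and 2536 in the controls to 1662, 1700 and 9171. Mrpl53, a member of 118 residues, went the other way (91.5, 99.8 and 98.8 to 63.8, 56.0 and 32.4). Of the 790 exonic bases of Mrpl53, 695 are shared with Gm42688 on the same strand, so its reads are less certain. The part of coding length in the calls was not tested.

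Mitoribosomal protein genes often lie beside another gene. A protein-coding gene starts head to head within 1000 bases of 33 members (42.3%), against 2113 of 13328 protein-coding genes of the table (15.9%). Of these 33 partners 7 were lower and 5 higher, no more than the shares of all genes (23.5% and 21.7%), with a median log2 change of -0.29, while the members of the pairs had a median of -0.45. Mrps18b starts 45 bases from Ppp1r10, a regulator of protein phosphatase 1, which fell with a log2 change of -0.74 (adjusted p = 0.011, limma), at 4013 ± 223 in control and 2431 ± 405 in knockdown cells (SD, n = 3). Mrpl30, at -0.82 and not past the threshold, starts 66 bases from Mitd1, a gene of membrane remodelling at the end of cell division, which rose by 1.04 (adjusted p = 0.013, limma). Mrpl46 and Mrps11, of the large and the small subunit, are each other's partner on chromosome 7 and share 173 exonic bases. Mrpl46 went from 645, 652 and 646 to 354, 346 and 821, and Mrps11 from 849, 897 and 946 to 558, 590 and 1207. Both had libraries 1 and 2 below and library 3 above the controls. Exons of 33 members overlap those of another gene, 8 on the same and 28 on the opposite strand, and reads of opposite-strand pairs cannot be told apart without strand, nor reads in shared same-strand bases with it.

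Mitoribosomal proteins whose symbols fall outside the naming rule moved in different directions. Ptcd3, a pentatricopeptide protein of the small subunit, went from 3235, 3213 and 3268 to 981, 956 and 218 (log2 -2.46 ± 0.59, adjusted p = 0.017, limma), but leaving out 1 control library raised the adjusted p to between 0.059 and 0.062. Gadd45gip1, a large subunit protein, was higher, at 1450, 1559 and 1488 in the controls and 3465, 3487 and 4577 in the knockdown (1.35 ± 0.15, adjusted p = 7.2e-04, limma). Neither gene's groups overlapped. Of the other 3, all of the small subunit, Dap3 stood at 0.02 (-0.33 without library 3), Chchd1 at -0.50 and Aurkaip1 at 0.86, and none passed. Without library 3, 3 of the 5 were lower and 2 higher, against 39.9% and 38.6% of all genes.

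Genes that build and use the mitochondrial ribosome were lower more often than higher, while over all genes tested 23.5% were lower and 21.7% higher. Of 27 genes for assembly and ribosomal RNA modification 11 were lower and 1 was higher (median -0.44), among them the assembly GTPases Gtpbp10 (579 ± 21.1 to 258 ± 18.7, log2 -1.16) and Noa1 (-0.80), with the methyltransferase Mrm1 higher (0.63). Of 15 translation factors and genes of messenger RNA handling 7 were lower and 0 higher (median -0.45), including the elongation factor Tufm (4637 ± 158 to 2170 ± 116, -1.10) and the RNA-binding Lrpprc (-0.94). At an unadjusted p in limma 8 were lower and 0 higher, against 4431 and 4143 of all 16245 genes. For this list edgeR and DESeq2 each called 7 and 0 (22.0% and 23.2% of all genes in edgeR, 25.3% and 26.7% in DESeq2). Of 17 mitochondrial aminoacyl-tRNA synthetases 7 were lower, including Ears2 (-1.40) and Mars2 (-2.22), and Pars2 was higher (0.97, adjusted p = 0.025, limma, and 0.071 to 0.092 with any 1 library other than knockdown 3 left out). Without library 3 these lists had 18 lower and 2 higher, 11 and 0, and 12 and 2, against 39.9% and 38.6% of all genes.

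The wider mitochondrial lists were also lower more often than higher, while over all genes tested 23.5% were lower and 21.7% higher. Of 15 genes of mitochondrial transcription and replication 7 were lower and 0 higher (median -0.72), including the helicase Supv3l1 (-0.86) and the transfer RNA processing protein Trmt10c (-0.97). Of 17 genes of import and mass 14 were lower and 0 higher (median -1.01), including the outer membrane channel Vdac2 (-1.30) and the prohibitin Phb (-1.42). Of 12 messenger RNAs encoded by mitochondrial DNA 3 were lower, near the share of all genes, and 0 higher (median -0.87). The 3 included mt-Nd1 (-1.38) and mt-Nd2 (-1.22), subunits of complex I. The counts of lower and higher genes in these 3 lists were 10 and 0, 15 and 0, and 6 and 0 at an unadjusted p in limma. They were 7 and 0, 13 and 0, and 4 and 0 in edgeR, and 7 and 0, 15 and 0, and 6 and 0 in DESeq2. Over all 16245 genes, 4431 were lower and 4143 higher at an unadjusted p under 0.05 in limma. The shares of all genes were 22.0% and 23.2% in edgeR and 25.3% and 26.7% in DESeq2. Without library 3 the counts of these 3 lists were 13 and 1, 17 and 0, and 11 and 0, against 39.9% and 38.6% of all genes. Their medians were then -0.52, -0.98 and -0.67, beside -0.70 for the members.

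Among 11 regulators of mitochondrial biogenesis, 6 were lower and 1 was higher (8 and 2 without library 3). Over all genes the shares were 23.5% and 21.7% (39.9% and 38.6% without library 3). The coactivator Ppargc1a went from 361, 413 and 383 to 87.9, 72.8 and 114 (log2 -2.08 ± 0.21, adjusted p = 5.5e-04, limma), and Myc fell by 0.93 on the log2 scale while its partner Max rose by 0.93. Of the factors whose motifs were searched, chosen for that reason, Nrf1 went from 1284, 1480 and 1310 to 1273, 1325 and 1287 with overlapping groups (-0.07, adjusted p = 0.67, limma). Gabpa, the DNA-binding subunit of GABP, stood at 0.68 (adjusted p = 0.061) and at 0.95 without library 3 (adjusted p = 1.1e-07), its partner Gabpb1 fell (-0.59, adjusted p = 0.023), and Yy1 stood at -0.36 (adjusted p = 0.11, limma throughout).

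**Figure D4:**
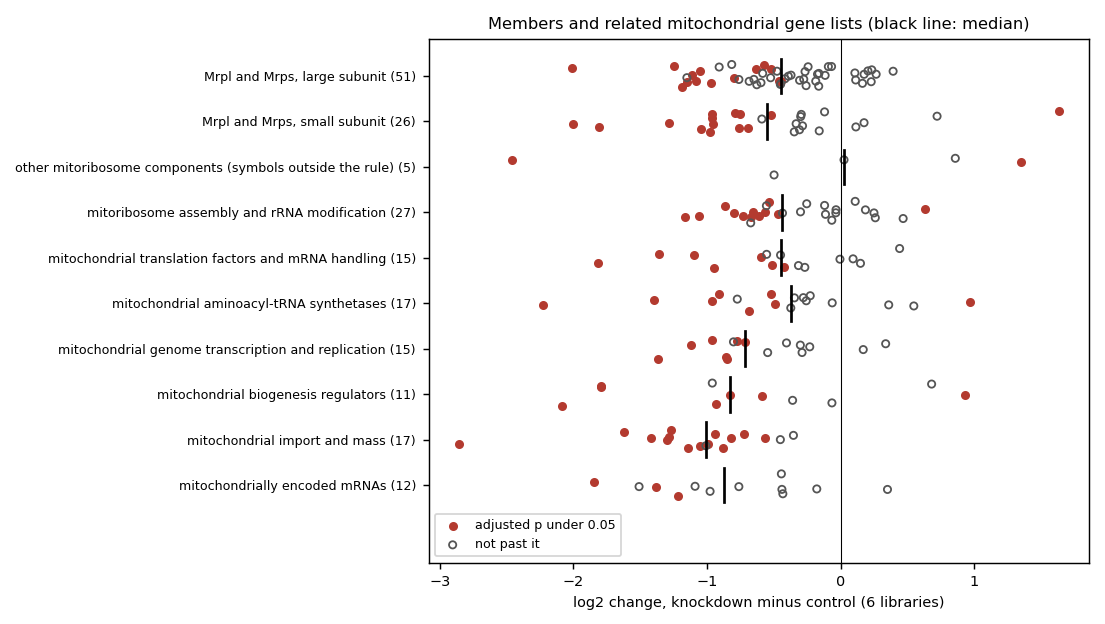
Each point is 1 gene and the x axis is its log2 change in the knockdown over 6 libraries, for both subunits and 8 related lists (numbers of genes in brackets), with filled points past an adjusted p of 0.05 and a black line at each median. Both subunits and 7 of the 8 lists have their median below 0, and the import and mass list lies lowest, at -1.01.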

How the data were processed

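RNA of 6 libraries, 3 control and 3 Adamtsl2 knockdown, was poly(A)-selected and sequenced as paired reads of 150 bases, per the labels' protocols. Trimmomatic 0.36, featureCounts of Subread 1.5.2, DESeq2 and the build GRCm38 are named, per the submitters' processing notes. For the aligner, annotation release and strand setting nothing is given in the sources used here. The authors deposited 1 normalised signal per gene and library, gene counts divided by a size factor, called normalised counts here. The table also holds their log2 fold changes and p-values, per the file headers; of the 78 members, 30 are lower and 1 is higher at an adjusted p of 0.05 in the authors' deposited table.

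Values were whole multiples of 1 read for 100% of values (tolerance 0.01 reads), so reads were recovered. The main test was limma 3.58.1 (R 4.3.3) on log2(value + 1) with a mean-variance trend and no block, two-sided, over the 16245 genes that reached 10 in 3 or more libraries, with Benjamini-Hochberg adjustment over all of them. Changes of low genes are understated on this log2(value + 1) scale. edgeR 4.0.16 on recovered reads called 7344 genes and DESeq2 1.42.0 called 8461. The procedure was tested on simulated data. Replicates were checked for duplicates, where sampling noise gives a chi-square of 1 per gene. Control pairs gave 6.85 to 15.9, knockdown 1 with 2 gave 3.85, and knockdown 3 gave 773 with 1 and 727 with 2. Each library was therefore counted as its own sample. The check cannot tell whether the libraries came from separate cultures.

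Positions, lengths and overlaps come from GENCODE M21 (GRCm38), where all 78 members were found, and promoters from RefSeq, where 9 members had no entry. Members, subunits, origins and lists were chosen with earlier results of these data known. Named genes were, by rule, Adamtsl2, up to 6 called members per subunit and direction with the largest change, the 3 with the smallest, the 2 most abundant per kilobase, the Mrps18 family, Mrps36, 5 components outside the rule, and up to 2 per list and direction by adjusted p. Further genes were named with their values already seen. Prorp, Mycn and mt-Nd3, which were listed, are not analysed here. Alternatives were TMM and upper-quartile scaling, pseudocounts of 0.5 and 5, a minimum of 50 or none, no trend, edgeR, DESeq2, subunits by symbol letter, an adjusted p of 0.01, a replicate block, and leaving out each library; edgeR without knockdown library 3 was added after seeing the data.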

Additional observations from a re-analysis of the deposited data

How the results depend on the processing

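Counts of lower members stayed within 1.5 times of those reported, and medians of both subunits stayed negative, with no filter, a minimum of 50, other pseudocounts, TMM or upper-quartile scaling, no trend, edgeR and DESeq2 on 6 libraries, and subunits by symbol letter. Upper-quartile scaling moved the median of all genes by 0.12 on the log2 scale and edgeR by 0.11; relative to that, members stayed at -0.46 in both. At an adjusted p of 0.01, 2283 genes were higher and 2545 lower, with 17 members lower (8 large, 8 small subunit) and, of the related lists, 2 higher and 37 lower. With edgeR and without knockdown library 3, 6489 genes were higher and 6459 lower, 2 members higher and 70 lower (45 large; 2 higher and 24 lower in the small subunit), and 10 and 93 of the related lists. With 1 library left out in limma, the ranges were 2443 to 6269 higher and 2648 to 6485 lower genes, 1 to 2 higher and 17 to 70 lower members, 7 to 45 lower in the large subunit, 1 to 2 higher and 9 to 24 lower in the small subunit, and 3 to 9 higher and 36 to 93 lower in the related lists; the highest counts came without knockdown library 3. Of the 29 calls, 18 held with each library left out.

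Over the fits with 1 library left out, 18 of 78 members had log2 changes of both signs. Among the genes named by rule, signs turned as follows. With 1 library left out, log2 changes ranged from -0.33 to 0.22 for Dap3, -0.58 to 0.18 for Mrpl13, -0.097 to 0.21 for Mrpl40, -0.60 to 0.20 for Mrpl41, -0.66 to 0.50 for Mrpl52, -0.92 to 0.024 for Mrps18c, -0.47 to 0.41 for Mrps21, -0.63 to 0.091 for Mrps24 and -0.42 to 0.032 for Mrps9, each lowest without knockdown library 3. In edgeR without that library, Dap3 was -0.31, Mrpl40 -0.082, Mrpl52 -0.65 and Mrps21 -0.46. With upper-quartile scaling Mrpl13 was 0.024 and Mrpl41 0.048. In edgeR and DESeq2 Mrpl13 was 0.13 and 0.11, Mrpl41 0.17 and 0.16, Mrps18c 0.036 and 0.023, and Mrps24 0.042 and 0.028. The cause was not tested. The lowest read count of a member in a library was 29.

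Deviations of same-numbered libraries correlated at 0.02, 0.10 and 0.14, and not every library correlated best with its own number. Knockdown libraries 1 and 2 lay close together and correlated alike with each control, at 0.12 and 0.10 with control library 2. The correlations could thus not decide whether libraries with the same replicate number belong together. With the number as a replicate block, 3010 genes were higher and 3301 lower, and 23 members were lower (11 in each subunit) and 1 higher; Mrpl12 then passed (adjusted p = 0.047) and Mrps34 did not (0.053).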

Other observations

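Rows named as pseudogenes were left out of the members, and both followed the pattern of knockdown library 3. Mrpl48-ps had 121, 105 and 147 normalised counts in the controls and 77.1, 75.3 and 358 in the knockdown, and Mrpl23-ps1 had 16.3, 22.7 and 22.8 against 8.29, 6.69 and 54.8. Reads of such copies and of their parent genes, Mrpl48 and Mrpl23, can be split by the counting, so these values are uncertain. In Mrpl48 library 3 lay with libraries 1 and 2, at 688, 785 and 723, whereas in Mrpl23 it lay above them, at 1106, 1163 and 2563.

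By chromosome, all 3 members on chromosome 9 (Mrpl3, Mrpl4 and Mrps22) were lower, with a median log2 change of -1.05 against -0.07 for all genes tested there. None of the 4 members on chromosome 4 (Mrpl20, Mrpl37, Mrpl50 and Mrps15) was called, with a median of 0.21 against 0.51 for that chromosome. No member was called lower on chromosomes 3, 10, 14 and 15 either. Over all genes tested 23.5% were lower and 21.7% higher. The groups by chromosome were chosen after their values were seen and were given no test.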
